A study of Homo sapiens with 15 samples.

Results

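The genes described here are MYC, the G1 cyclins CCND1, CCND3, CCNE1 and CCNE2, the kinases CDK4 and CDK6, and the CDK inhibitors CDKN1A and CDKN1B. They were taken by symbol from the table of normalized counts, and all 9 were found among its 59608 genes and among the 13561 genes tested. RNA came from MDA-MB-231 cells, an established human breast cancer line, grown in 2D culture and exposed for 6 h to ZJ-101, a compound derived from a marine natural product. ZJ-101 was given at 0.5, 5, 50 or 500 nM, and the control dishes received 0.1% DMSO. Each of the 5 groups had 3 dishes, which gives 15 libraries from 1 cell line, and the 4 doses were all compared with the same 3 DMSO libraries. MDA-MB-231 is known to have lost the CDKN2A locus.

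Progress from G1 into S phase is driven by cyclin-dependent kinases. D cyclins activate CDK4 and CDK6, E cyclins activate CDK2, and both kinds of complex phosphorylate the retinoblastoma protein so that E2F factors can switch on genes for DNA replication. CDKN1A (p21) and CDKN1B (p27) bind and restrain these complexes, while MYC, a transcription factor that pairs with MAX, promotes growth, ribosome production and cell cycle entry and can repress CDKN1A.

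Depth was similar across the libraries, with 12415519 to 15284762 reads on genes, a median of 13320354, and 0.889% to 2.06% of reads on mitochondrial genes. Library 0.5 nM replicate 2 lay farthest from its group, with a root mean square log2 distance of 0.32 to its replicates, where the other 14 libraries had 0.238 to 0.291. Of 6 mesenchymal markers of the line, VIM, CD44, AXL, CAV1 and FN1 had at least 6955 normalized counts in every library, whereas SPARC was nearly absent at 1.06 to 6.18. Of 7 markers listed as low, ESR1 had 0 to 4.30 and PGR 5.37 to 17.3 normalized counts. CDH1 had 107 to 206, GATA3 122 to 168, EPCAM 266 to 320.2 and ERBB2 1136 to 1328, and KRT8 reached 11198 to 13346, so the other 5 were not near absent. The measured RNA is from whole dishes, so fewer cells in a given state and less RNA per cell cannot be told apart.

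Promoter sequence is shown for genes that differed in their response. CDKN1A and CDKN1B are shown because both fell with ZJ-101, and CDK4 because its promoter holds the letters of the E-box bound by MYC with MAX, and it did not pass the test at any dose. The sequences are from RefSeq on GRCh38.p14, read 5′ to 3′ on the strand of the gene. Capitals mark CACGTG, that E-box, in CDK4, GGGCGG, the GC box, in CDKN1A, and GGGCGG or CCAAT in CDKN1B.
CDK4, chr12:57752448-57752560, minus strand: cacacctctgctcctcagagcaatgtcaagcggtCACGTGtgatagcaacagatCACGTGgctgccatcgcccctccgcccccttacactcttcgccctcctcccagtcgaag
CDKN1A, chr6:36678464-36678709, plus strand: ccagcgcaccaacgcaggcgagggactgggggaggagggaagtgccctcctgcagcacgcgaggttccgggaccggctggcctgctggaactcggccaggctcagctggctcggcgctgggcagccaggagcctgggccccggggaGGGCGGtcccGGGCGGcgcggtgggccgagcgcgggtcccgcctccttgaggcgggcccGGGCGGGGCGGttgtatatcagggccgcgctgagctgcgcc
CDKN1B, chr12:12717118-12717367, plus strand: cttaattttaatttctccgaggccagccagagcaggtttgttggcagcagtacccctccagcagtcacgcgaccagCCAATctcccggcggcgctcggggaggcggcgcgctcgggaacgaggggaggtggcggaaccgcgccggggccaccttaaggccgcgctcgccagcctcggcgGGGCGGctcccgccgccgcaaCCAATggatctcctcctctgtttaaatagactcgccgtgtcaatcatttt

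The motifs were searched on both strands in the 250 bases before each RefSeq start, and a match is a run of letters, not a measured binding site. Each stretch shown ends before the first base annotated as an untranslated region, which leaves out 137 bases for CDK4 and 4 for CDKN1A. The CDK4 window held 3 CACGTG runs, of which 2 are in the stretch shown. Among 35116 such windows, 6.34% held at least 1 CACGTG and 28 windows, or 0.0797%, held at least 3. The CDK4 window also held 3 GGGCGG runs on the strand opposite the gene, which are not in capitals. The CDKN1A window held 4 GGGCGG runs, the last 2 of which overlap, and the CDKN1B window held 1 GGGCGG and 2 CCAAT runs. Of all windows, 42.6% held GGGCGG and 32% held CCAAT. Windows of genes that passed at no dose by limma also held GGGCGG, with 7 runs for CCNE1, up to 5 for CCND3 and up to 3 for CDK6. Neither inhibitor's window held the E-box letters. The TATA box, searched as TATAAA, and the core of a heat-shock element, searched as GAANNTTC, were also not among the letters of these windows, and they stood in 10.7% and 5.78% of all windows.

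In DMSO, the genes covered a wide range of levels when normalized counts were divided by the length of the canonical transcript. CCND1 was highest at 2166 ± 44.9 normalized counts per kb (SD, n = 3), followed by CCND3 at 1795 ± 54.6. CDKN1A had 768.5 ± 20.9 and CDK4 730.3 ± 56.7 per kb, and the libraries of this pair overlapped. CDKN1B had 476 ± 9.16 and MYC 468 ± 25.4 per kb, and these too overlapped. The lowest levels were those of CDK6 with 125 ± 5.33, CCNE2 with 103.5 ± 6.35 and CCNE1 with 78.3 ± 4.62 per kb, and the libraries of these genes did not overlap. The bar plot of levels per kb shows this order, which depends on the transcript chosen for each gene.

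**Figure D1:**
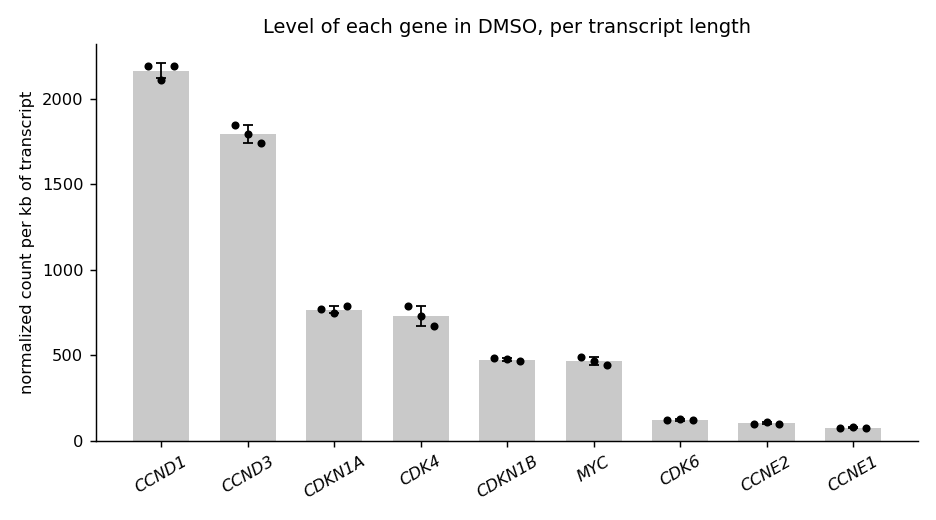
Normalized count per kb of canonical transcript (vertical axis) of each gene (horizontal axis) in the 3 DMSO libraries; bars are means, error bars are SD and points are libraries. The D cyclins CCND1 (2166) and CCND3 (1795) stood above the other genes, and CCNE1 (78.3) was lowest.

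Differences between doses were tested with limma on log2(normalized count + 1), with Benjamini-Hochberg adjustment over all tested genes and a threshold of 0.05 on the adjusted p. At 50 nM and at 500 nM the same 3 of the 9 genes passed, namely MYC, which rose, and CDKN1A and CDKN1B, which fell. Of all tested genes, 6.00% passed at 50 nM and 17.8% at 500 nM. At 0.5 nM and at 5 nM, 0 of the 9 genes passed by limma, where 1.17% and 2.18% of all tested genes did. By unadjusted p under 0.05, 3 genes passed at 0.5 nM (MYC, CCND3 and CDKN1B) and 4 at 5 nM (the same and CCNE2), where 14.7% and 12.9% of all tested genes did. On whole reads, edgeR called 0 of the 9 at both of these doses, and DESeq2 called 0 at 0.5 nM and 1, CCND3, at 5 nM. The 5 nM count also depended on 0.5 nM replicate 2, which bears on this comparison only through the spread that all groups share. Without that library, MYC and CCND3 passed at 5 nM by limma, with an adjusted p of 0.048 and 0.023. Over all tested genes, 623 passed at 5 nM without it and 295 with it.

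**Figure D2:**
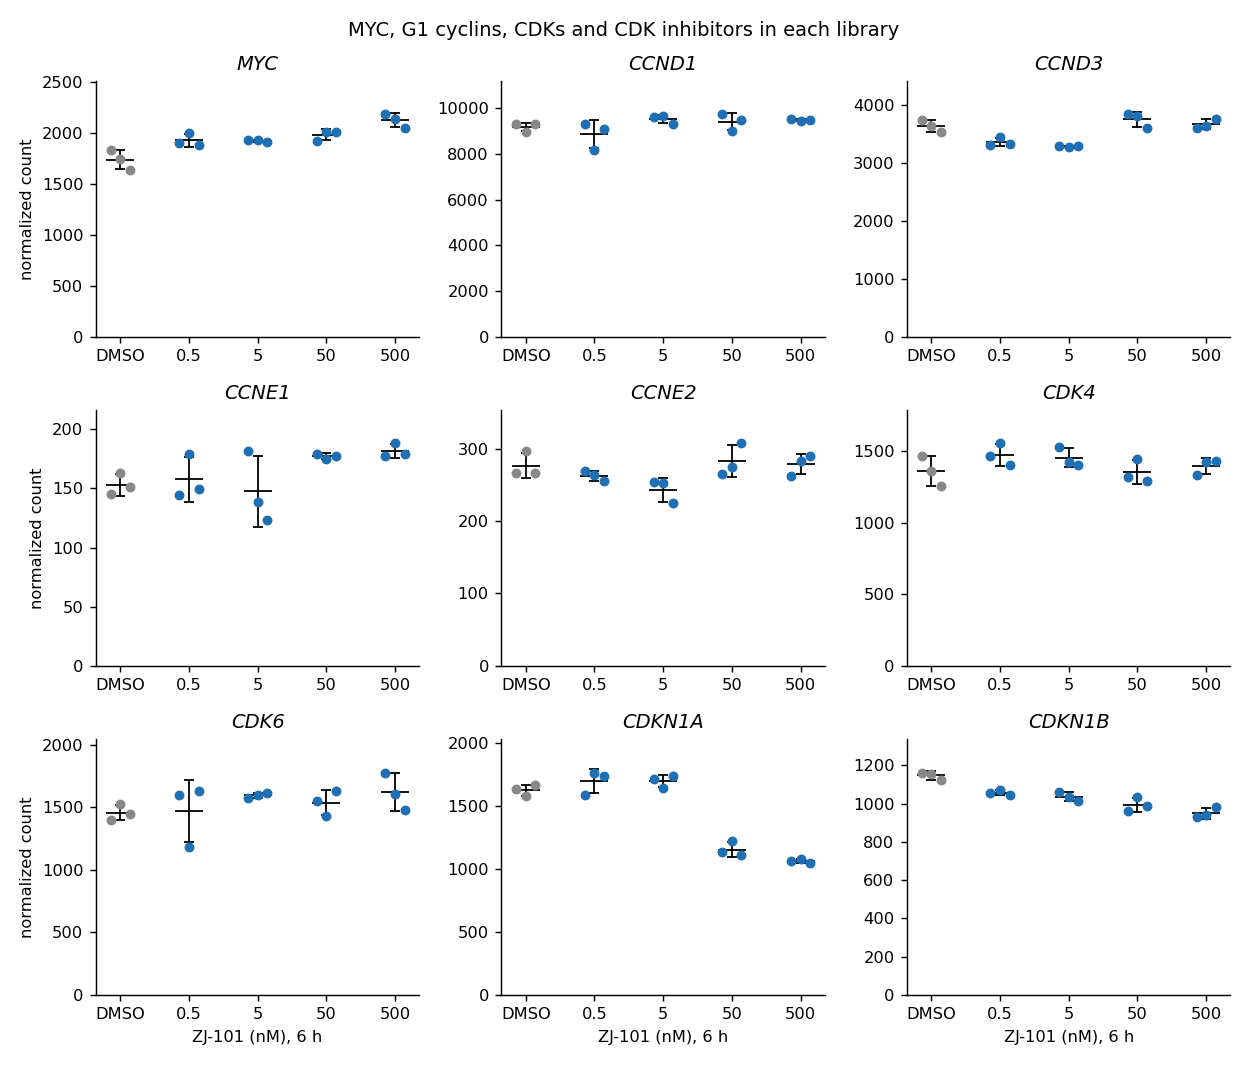
Normalized count (vertical axes, from 0) of each gene in each library by dose of ZJ-101 in nM after 6 h (horizontal axes); points are libraries, horizontal lines are means and error bars are SD of 3. The 500 nM libraries of MYC (2049.9 to 2186) lay above all DMSO libraries, and those of CDKN1A (1049 to 1078) and CDKN1B (928 to 980.3) lay below them.

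MYC (ENSG00000136997.22, GRCh38 chromosome 8, 127735434 to 127742951, plus strand) had 1832, 1746 and 1642.5 normalized counts in DMSO replicates 1 to 3. At 500 nM it had 2186, 2144 and 2049.9. All treated libraries, 1887 at the least, lay above the highest DMSO library, so that no dose overlapped DMSO. The group means were 1740 ± 94.7 in DMSO (SD, n = 3), 1931 ± 66.0 at 0.5 nM, 1925 ± 13.0 at 5 nM, 1987 ± 51.2 at 50 nM and 2127 ± 69.8 at 500 nM. The mean at 500 nM was 22.2% above DMSO, a log2 fold change of 0.29 (95% confidence interval 0.19 to 0.39, adjusted p = 0.00017 by limma). At 50 nM the log2 fold change was 0.19 with an SE of 0.05 and an adjusted p of 0.015.

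The rise of MYC was shallow along the doses. The log2 fold changes at 0.5 and 5 nM were 0.15 each, with adjusted p of 0.13 and 0.12 by limma. From 50 to 500 nM the difference was 0.10 (95% confidence interval 0.0009 to 0.20, adjusted p = 0.38), and the libraries of these doses did not overlap. The slope per step of dose rank, fitted over all 15 libraries, was 0.06 on the log2 scale and passed with an adjusted p of 0.00052. The call at 500 nM was kept in all 25 alternative analyses. CASC11, a long noncoding RNA on the other strand, covers 3.18% of the exon bases of MYC. The call at 50 nM was lost without DMSO replicate 2 (adjusted p = 0.051 by limma), DMSO replicate 3 (0.10) or 50 nM replicate 3 (0.066).

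CCND1 (ENSG00000110092.4, chromosome 11, 69641156 to 69654474, plus strand) encodes cyclin D1, a mitogen-responsive activator of CDK4 and CDK6. It had 9289.7, 8958 and 9286 normalized counts in DMSO and 9542, 9453 and 9501 at 500 nM. These 3 libraries at 500 nM lay above DMSO without overlap, but by a mean of only 3.50%, and the log2 fold change of 0.05 (95% confidence interval -0.05 to 0.15) had an adjusted p of 0.54 by limma. The lowest value of all was that of 0.5 nM replicate 2, the library that stood apart. With that library the 0.5 nM mean was 8852 ± 608, against 9178 ± 190 in DMSO, a log2 fold change of -0.05, and without it the fold change was 0.0031. LTO1 on the other strand covers 10.4% of the exon bases of CCND1.

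CCND3 (ENSG00000112576.13, chromosome 6, 41934934 to 42050357, minus strand) encodes cyclin D3 and followed a different course. It had 3747, 3637 and 3526 normalized counts in DMSO. The libraries had 3316, 3448 and 3318 at 0.5 nM and 3287, 3281 and 3293 at 5 nM. At both of these doses every library lay below DMSO, whereas at 50 nM, with 3838, 3807 and 3605, and at 500 nM, with 3603, 3629 and 3766, the libraries overlapped those of DMSO. The log2 fold change against DMSO was -0.11 at 0.5 nM (adjusted p = 0.18 by limma) and -0.15 at 5 nM (adjusted p = 0.068), and at 500 nM it was 0.01 with a 95% confidence interval of -0.07 to 0.10.

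From 5 to 50 nM, CCND3 rose by 0.19 on the log2 scale, with a 95% confidence interval of 0.11 to 0.27 and an adjusted p of 0.0068 by limma. This step was called in all 25 alternative analyses. CDKN1A was the other of the 9 genes past the threshold at this step, where 5.01% of all tested genes passed. The difference of CCND3 between DMSO and 5 nM passed in 4 of the 25 alternatives, namely with the same total per library (adjusted p = 0.041), by DESeq2 (0.03), in the 6 libraries of both groups alone (0.017) and without 0.5 nM replicate 2 (0.023).

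The E cyclins had fewer counts than the other genes described here, and CCNE1 had a wide spread at 0.5 and 5 nM. CCNE1 (ENSG00000105173.14, chromosome 19, 29811991 to 29824312, plus strand) encodes cyclin E1 and had 145, 163 and 151 normalized counts in DMSO, 179, 175 and 178 at 50 nM and 177, 188 and 179 at 500 nM. At these doses the libraries lay above DMSO without overlap, while those at 0.5 nM (144 to 179) and 5 nM (124 to 181) overlapped it. The log2 fold change at 500 nM was 0.25 (95% confidence interval -0.005 to 0.50) with an adjusted p of 0.18 by limma, and the slope had an adjusted p of 0.11. From 5 to 50 nM the difference of 0.28 had an adjusted p of 0.22, and of the 25 alternatives it passed only without 5 nM replicate 1, the highest of its group, at 0.44 with an adjusted p of 0.031.

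CCNE2 (ENSG00000175305.18, chromosome 8, 94879770 to 94896678, minus strand), which encodes cyclin E2, had 277 ± 17.0 normalized counts in DMSO (SD, n = 3) and 279 ± 13.9 at 500 nM. Its log2 fold change at 500 nM was 0.01 (95% confidence interval -0.16 to 0.18, adjusted p = 0.95 by limma). The lowest group was 5 nM, with 254, 252 and 225, all below the lowest DMSO library at 267, and the log2 fold change of -0.18 there had an adjusted p of 0.32. Exons of INTS8 on the other strand cover 37.1% of its exon bases. Whether the reads were counted by strand is not given in the sources used here, so reads from these shared bases cannot be told apart.

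The G1 kinases did not pass the test at any dose. CDK4 (ENSG00000135446.17, chromosome 12, 57747727 to 57756013, minus strand) had 1362 ± 106 normalized counts in DMSO (SD, n = 3) and 1398.5 ± 54.2 at 500 nM, and its libraries overlapped DMSO at every dose. The log2 fold change at 500 nM was 0.04 (95% confidence interval -0.09 to 0.17, adjusted p = 0.73 by limma), and the largest, at 0.5 nM, was 0.12 (adjusted p = 0.40). TSPAN31 on the other strand covers 44.3% of the exon bases of CDK4, with the same limit as for CCNE2.

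CDK6 (ENSG00000105810.10, chromosome 7, 92604921 to 92836573, minus strand) had 1400.1, 1524 and 1449 normalized counts in DMSO and 1778, 1610.1 and 1476 at 500 nM, which overlap. The log2 fold change at 500 nM was 0.15 (95% confidence interval -0.04 to 0.35, adjusted p = 0.31 by limma). Its widest group was 0.5 nM, where replicate 2 had 1184 against 1596 and 1632 in the others. The log2 fold change of CDK6 at 0.5 nM was -0.0009 with that library and 0.15 without it (adjusted p = 0.33 by limma).

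CDKN1A (ENSG00000124762.14, chromosome 6, 36676460 to 36687337, plus strand) showed the largest change of the 9 genes. It had 1633, 1580.2 and 1668 normalized counts in DMSO and 1586, 1766 and 1738 at 0.5 nM. At 5 nM it had 1714, 1642 and 1741. At 50 nM it had 1136, 1220.3 and 1107, and at 500 nM 1067, 1078 and 1049. The libraries of the lower doses overlapped DMSO, and those of 50 and 500 nM lay far below every other library.

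The mean of CDKN1A was 0.71 times that of DMSO at 50 nM and 0.65 times at 500 nM. On the log2 scale it fell by 0.50 (adjusted p = 2.1e-06 by limma) and by 0.61 (95% confidence interval -0.72 to -0.51, adjusted p = 5.8e-08). The drop lay between 5 and 50 nM, where it fell by 0.56 (adjusted p = 7.8e-07). From 50 to 500 nM the difference was -0.12 (95% confidence interval -0.22 to -0.01), with an adjusted p of 0.33, although these libraries did not overlap. At that step 0 of the 9 genes passed by limma, edgeR or DESeq2, where 2.28% of all tested genes passed by limma, and 2 genes, MYC and CDKN1A, had an unadjusted p under 0.05 by limma, as did 13.1% of all tested genes. Between 0.5 and 5 nM also 0 of the 9 passed by any of these tools, where 0.118% of all tested genes did by limma, and CCND1 alone had an unadjusted p under 0.05, as did 7.96% of all tested genes.

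From 5 to 50 nM, CDKN1A ranked 33 among the 13561 tested genes by p, and 106 at 500 nM. All of its calls were kept in the 25 alternatives, with a log2 fold change at 500 nM between -0.63 and -0.59. DINOL, a long noncoding RNA on the other strand, covers 4.87% of its exon bases.

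CDKN1B (ENSG00000111276.12, chromosome 12, 12685498 to 12722369, plus strand) also fell past the threshold at 50 and 500 nM, by less than CDKN1A. It had 1163, 1157 and 1122 normalized counts in DMSO and 1057, 1070.2 and 1048 at 0.5 nM. At 5 nM it had 1062, 1033 and 1016, at 50 nM 959.5, 1033 and 989, and at 500 nM 928, 939.6 and 980.3. Every treated library lay below every DMSO library, and neighbouring doses overlapped. The mean was 0.92 times that of DMSO at 0.5 nM, 0.90 times at 5 nM, 0.87 times at 50 nM and 0.83 times at 500 nM.

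The log2 fold change of CDKN1B was -0.12 at 0.5 nM (adjusted p = 0.23 by limma) and -0.15 at 5 nM (0.11). It fell by 0.21 at 50 nM (adjusted p = 0.0065) and by 0.27 at 500 nM (95% confidence interval -0.37 to -0.18, adjusted p = 0.00023). No single step between neighbouring doses passed, and the slope was -0.06 per dose rank with an adjusted p of 0.00013. Over the 3 genes with a slope past the threshold, where 17.6% of all tested genes passed, CDKN1A had -0.18, CDKN1B -0.06 and MYC 0.06 per rank on the log2 scale. The plot of fold changes shows the step of CDKN1A after 5 nM beside the graded course of CDKN1B. From 0.5 to 5 nM, MYC changed by -0.004 and CDKN1B by -0.03 on the log2 scale. Whether the 2 genes differ in the shape of their course was not tested.

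**Figure D3:**
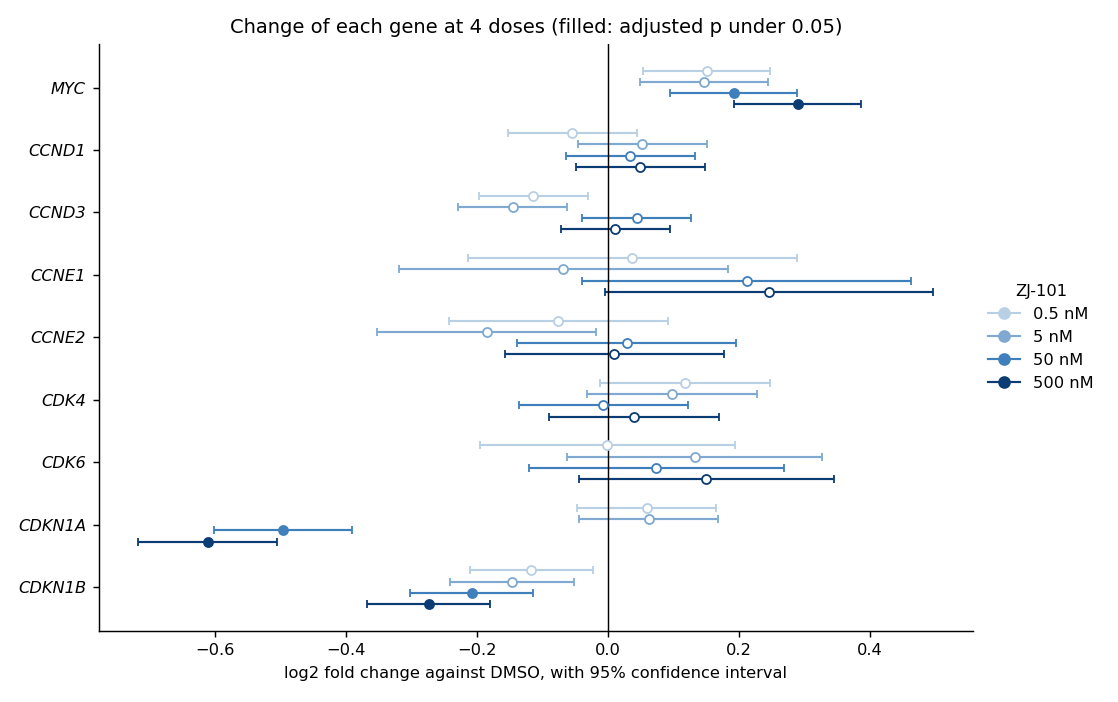
Log2 fold change against DMSO (horizontal axis) of each gene (vertical axis) at 4 doses of ZJ-101; lines are 95% confidence intervals and filled points have an adjusted p under 0.05 by limma. Filled points were those of MYC, CDKN1A and CDKN1B at 50 and 500 nM, with -0.61 for CDKN1A and 0.29 for MYC at 500 nM.

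Further genes of the G1 to S switch were taken from a list of 32, of which 29 were tested. At 500 nM, 1 rose and 3 fell by limma, or 13.8% against 17.8% of all tested genes, with a median log2 fold change of 0.05 against 0.003 over all genes. CDC25A, the phosphatase that activates CDK2, rose by 0.32 (adjusted p = 0.00069), from 730.2 ± 11.2 to 911 ± 36.8 normalized counts. CDKN2D, which encodes the CDK4 and CDK6 inhibitor p19, had 703, 746 and 703 normalized counts in DMSO and 481, 502 and 518 at 500 nM, and fell by 0.52 (adjusted p = 5.7e-06). CDKN2C, which encodes the related inhibitor p18, fell by 0.24 (adjusted p = 0.0018).

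E2F1 fell by 0.18 with an adjusted p of 0.043 by limma. That call was lost without any 1 of DMSO replicates 1, 2 and 3, 0.5 nM replicate 1, 5 nM replicates 1 and 2, 50 nM replicate 1 and 500 nM replicates 2 and 3, and with no filter on low counts, with adjusted p up to 0.17. Without each of these libraries, 2 genes of the list fell in place of 3, and 2 genes rose in place of 1 without 0.5 nM replicate 2 or 3 or 500 nM replicate 1. RB1, at -0.03, and CDK2, at -0.07, did not pass. Of the CDK inhibitors under the filter, CDKN1C had 0.883 to 25.1 normalized counts, and CDKN2A and CDKN2B had 0 reads in all 15 libraries, which allows up to 3 reads in each library of 12415519 to 15284762 reads, counting error only.

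MYC acts within a network of related factors, of which 20 of 22 listed genes were tested. MAX, its partner, and MNT, a repressor that competes for MAX, had log2 fold changes of -0.04 and -0.05 at 500 nM and did not pass. MXD4 and MXI1 encode repressors that also pair with MAX, and both fell at 500 nM. MXD4 had 1039, 1006 and 1074 normalized counts in DMSO and 727, 699.9 and 714 at 500 nM, a drop of 0.54 on the log2 scale (adjusted p = 1.8e-06 by limma), and it fell already at 5 nM, by 0.24 (adjusted p = 0.033). MXI1 fell by 0.59 at 500 nM (adjusted p = 0.0026), from 379.6 ± 9.32 to 252 ± 12.8 normalized counts. Of the same family, MXD1 had a log2 fold change of 0.003 at 500 nM and MXD3 -0.24. Neither passed by limma, with adjusted p of 0.99 and 0.054.

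In the same network, PIM1, a kinase that phosphorylates MYC, fell by 0.35 at 500 nM (adjusted p = 0.0011 by limma), and MLXIP, a glucose-responsive relative, rose by 0.20 (adjusted p = 0.029). The call of MLXIP was lost without DMSO replicate 1, 2 or 3, without 500 nM replicate 1 or 3 and with no filter, with adjusted p up to 0.13, so that 0 genes of the network rose there, and 2 rose without 0.5 nM replicate 2. The network's median log2 fold change was 0.01, with 1 gene up and 3 down, or 20% called against 17.8% of all tested genes. MYCN had 0 reads in all 15 libraries, with the same upper limit as CDKN2A, and MYCL had 4.30 to 14.4 normalized counts.

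**Figure D4:**
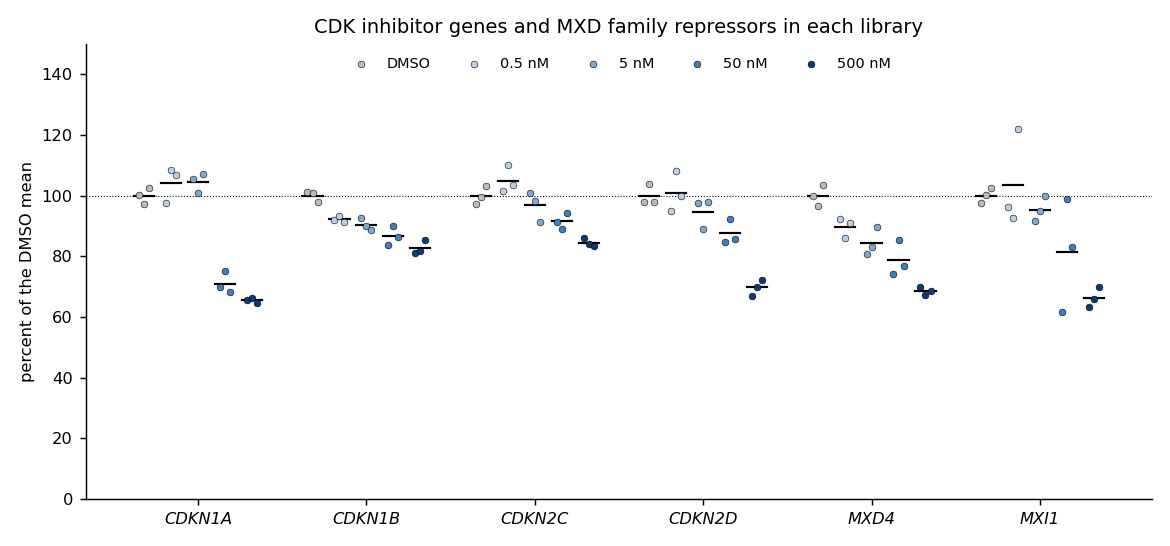
Percent of the DMSO mean (vertical axis, from 0) of 4 CDK inhibitor genes and 2 MXD family repressors (horizontal axis) in each library, coloured by dose; horizontal lines are group means. At 500 nM all 3 libraries of each gene lay below its DMSO libraries, as for CDKN2D with 481 to 518 against 703 to 746 normalized counts. All genes drawn had passed the threshold as falls at 500 nM by limma, so this position follows from the choice of genes. MXD1 and MXD3, which did not pass, are not drawn.

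Textbook target genes of MYC, 28 in ribosome assembly and metabolism, were all tested. At 500 nM, 15 rose and 2 fell by limma, or 60.7% called, where 7.69% of all tested genes rose and 10.1% fell, and the median log2 fold change was 0.21 against 0.003 over all genes. HSPD1, a mitochondrial chaperonin that also belongs to the heat-shock genes, rose by 0.62 (adjusted p = 1.6e-07), RRS1, a ribosome assembly factor, by 0.57 (3.1e-05), and POLR1B, a subunit of RNA polymerase I, by 0.41 (3.3e-05). RRS1 had 297, 272 and 303 normalized counts in DMSO and 441, 422 and 433 at 500 nM, with no overlap. TFRC, the transferrin receptor, fell by 0.41 (adjusted p = 3.1e-05), and LDHA, lactate dehydrogenase A, by 0.21 (adjusted p = 0.0047).

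Without HSPD1, 14 of 27 target genes rose at 500 nM and the median stayed at 0.21. Of the 28 genes, the number that rose was 10 without DMSO replicate 3 or without 500 nM replicate 1, the lowest of the 25 alternatives. The highest was 19, without 0.5 nM replicate 2 or 3 and in the 6 libraries of DMSO and 500 nM alone. In every alternative 2 fell. At 50 nM, 5 rose and 1 fell by limma, or 21.4% against 6.00% of all tested genes. At 0.5 and 5 nM 0 passed by limma, where 1.17% and 2.18% of all tested genes did. The plot of MYC target genes shows them in order of their fold change. Their common movement was not compared with that of other gene lists, and its relation to the level of MYC was not tested.

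**Figure D5:**
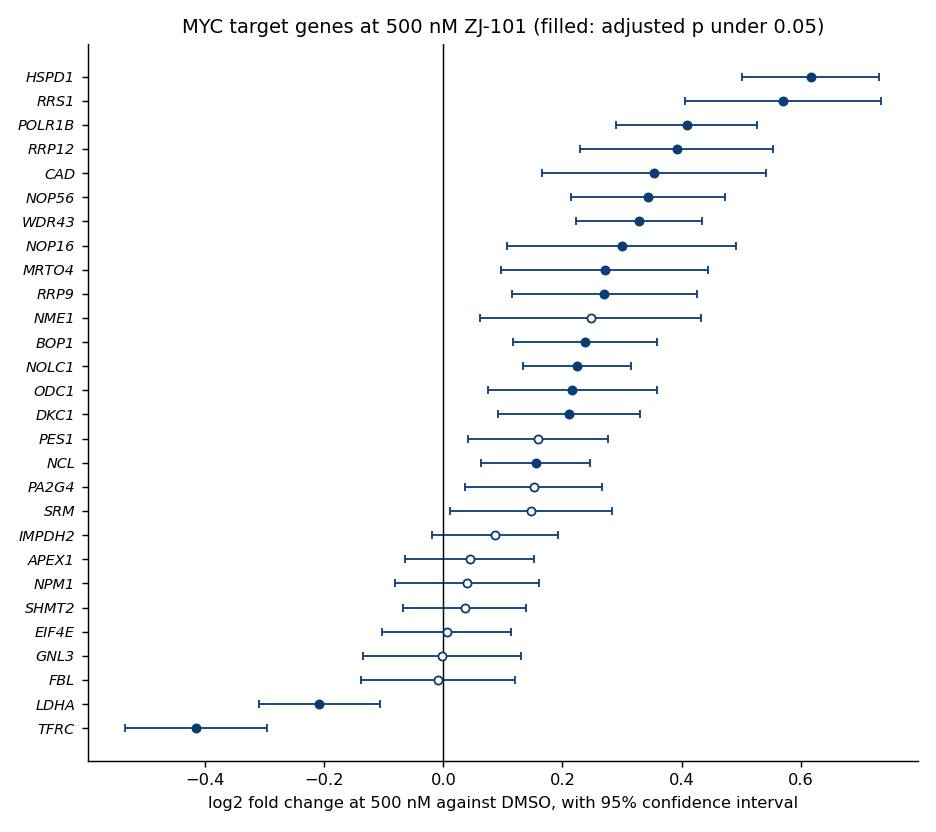
Log2 fold change at 500 nM against DMSO (horizontal axis) of 28 MYC target genes (vertical axis); lines are 95% confidence intervals and filled points have an adjusted p under 0.05 by limma. Of the 28 genes, 15 rose, from NCL at 0.15 to HSPD1 at 0.62, and LDHA (-0.21) and TFRC fell.

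Target genes of E2F act in DNA replication. Of 21 tested, 1 rose and 0 fell at 500 nM by limma, or 4.76% against 17.8% of all tested genes, with a median log2 fold change of 0.04 against 0.003 over all genes. The gene was CHAF1A, a subunit of a chromatin assembly factor, which rose by 0.16 (adjusted p = 0.037). That call was lost without DMSO replicate 1 or 2, without any 1 of the 500 nM libraries and with no filter (adjusted p up to 0.16), and 3 genes rose without 0.5 nM replicate 2 or 3. A fall of 1 gene was called without 0.5 nM replicate 2, 5 nM replicate 1 or 50 nM replicate 1. In the 6 libraries of DMSO and 500 nM alone, 4 rose and 1 fell. Over all tested genes, 3294 passed in these 6 libraries alone and 2409 in the main fit.

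For the genes past the threshold, the tested genes with the most similar course over the 15 libraries were found by Pearson r of log2(normalized count + 1), as a description, since the libraries share groups and doses. CDKN1A was most like ID1 (r = 0.99), COL13A1 (0.99) and PRSS23 (0.98). CDKN1B was close to PPT1 and LIPH, each at 0.96. MYC was most like AUP1 (0.94), SDAD1 (0.93) and SFXN4 (0.90), and CCND3, which passed at 1 step only, was most like CAV1 (0.94), BMP4 (0.93) and GDF15 (0.93).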

How the data were processed

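RNA from 15 dishes of MDA-MB-231 cells was measured, 3 per group. The labels call the ZJ-101 samples biological replicates and the DMSO samples only replicates (rep). Per the study's methods, the authors prepared libraries from poly-A RNA, used HISAT2 to align paired reads to hg38 and htseq-count for read counts per gene, and scaled each library by a DESeq2 size factor. Tool versions, strandedness and the GENCODE release are not given in the sources used here. The deposited values are these normalized counts, treated as signal. The smallest step in each library gave back whole reads, for 100% of values within 0.001 of a whole number, with size factors of 0.916 to 1.13, and 1 line without a gene was left out.

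For the 13561 genes whose mean reached 10, log2(normalized count + 1) was fitted by limma 3.58.1 (R 4.3.3, variance trend) in 1 model of the 5 groups. The Benjamini-Hochberg method adjusted p, and 0.05 was the threshold. This scale understates fold changes of low genes. The slope on dose rank was fitted separately. The test was run on simulated data first. The 25 alternatives for each result were a pseudocount of 0.5 or 5, no low-count filter or a mean of 50, TMM scaling, the same total per library, the replicate number as a block, edgeR 4.0.16 (quasi-likelihood) and DESeq2 1.42.0 on recovered reads, only the libraries compared (for the slope, the 12 treated libraries), and each library left out.

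The genes, the lists and the alternatives were chosen with earlier results of these data known, and the lists are from general knowledge. From each list the 3 largest rises and 3 largest falls past the threshold at 500 nM are named, with CDK inhibitors and MYC family genes under the filter, and for each of the 9 genes past the threshold at a dose or in the slope the 3 most similar genes. The genes most like CCND3, and CDK2, RB1, MAX, MNT, MXD1, MXD3 and NCL, are named outside this rule, after their values were seen. Of the similar genes 1, and of the lists 1, are not reported here. Positions, canonical transcripts and exon overlaps are from GENCODE 44 on GRCh38, and sequences from RefSeq on GRCh38.p14. A search of 261 alternate contigs with minimap2 2.31-r1302 found no copies. Over genes with at least 20 reads, the chi-square of replicate pairs within a group was 2.04 to 16.5 times its degrees of freedom, so no such pair was a duplicate. Pairs of libraries from different groups were not examined by this measure. Plots were drawn with Python 3.11.15.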

Additional observations from a re-analysis of the deposited data

How the results depend on the processing

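Of 11 results past the threshold among the 9 genes (3 at 50 nM, 3 at 500 nM, 2 from 5 to 50 nM and 3 slopes), 10 kept their direction and their call in all 25 alternatives, and the exception was MYC at 50 nM. The 0 genes among the 9 at 5 nM became 1 with the same total per library or with DESeq2 and 3 in the 6 libraries of both groups (MYC, CCND3 and CDKN1B), and 0 to 2 when 1 library was left out. Leaving out 1 library gave 2 to 3 of the 9 at 50 nM, 3 in each case at 500 nM and 2 to 3 from 5 to 50 nM. Over all genes, the 159 at 0.5 nM became 21 in the 6 libraries of both groups and 19 to 388 when 1 library was left out. The 295 at 5 nM became 846 and 113 to 623, the 814 at 50 nM 560 to 1277, and the 2409 at 500 nM 1796 to 3098. The 16 from 0.5 to 5 nM became 29 with DESeq2, 4 in the 6 libraries and 7 to 25 when 1 was left out, the 679 from 5 to 50 nM 424 to 1129, the 309 from 50 to 500 nM 139 to 630, and the 2381 slopes 1783 to 2689. CCND3 had a slope of 0.06 past the threshold (adjusted p = 0.027 by limma) over the 12 treated libraries. No scaling moved the median log2 fold change of all genes by over 0.1. The replicate numbers did not pair the samples: 30 pairs of libraries with the same number correlated with r from -0.09 to 0.10 and a median of 0.01, 0 of them over 0.1. With the replicate number as a block, 3 of the 9 genes passed at 50 nM and 3 at 500 nM, and no call among the 9 changed. CCNE1 had a mean of 153 normalized counts in DMSO, and its interval at 500 nM ran from -0.005 to 0.50.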
